A study of Mus musculus with 9 samples.

Results

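The 34 genes described here are interferon-stimulated genes, the antiviral, sensing, transcription factor and antigen presentation genes that cells switch on when they meet interferon. They were chosen by name, with earlier results of these data known, as were the other gene lists used below. All 34 were found once among the 35275 genes of the deposited table, with 26 of them among the 13082 genes that passed the filter on low counts. They were followed in mouse embryonic fibroblasts (MEFs), cultured connective tissue cells of C57Bl/6 embryos, across 9 poly(A) RNA-seq libraries. In 3 control libraries (con) the cells were kept in iso-osmolar medium of 300 mOsm, in 3 (lo500) the medium was raised with 200 mM sucrose to 500 mOsm, the low-intensity stress, and in 3 (hi600) with 300 mM sucrose to 600 mOsm, the high-intensity stress, each for 3 h. All groups shared the strain, the culture medium and the RNA preparation, and no cell received interferon. Age and sex of the embryos are not given, nor whether the triplicates were separate cultures, so that p-values measure the spread between these libraries, which may be technical. Because the RNA is that of whole cultures, fewer expressing cells and less RNA per cell cannot be told apart.

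Type I interferons bind a receptor of the chains IFNAR1 and IFNAR2, whose kinases JAK1 and TYK2 phosphorylate STAT proteins, STAT2 among them. With IRF9 these form a complex that binds the interferon-stimulated response element (ISRE) in the promoters of the responding genes, while the gamma-activated site (GAS) is the element of the response to interferon gamma. The induced proteins block viral RNA and its translation (IFIT proteins, OAS enzymes), detect foreign nucleic acid (RIG-I, MDA5, ZBP1) or load peptides onto MHC class I (TAP1, tapasin, β2-microglobulin). Fibroblasts carry a low level of many of these transcripts without infection.

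The promoters of 25 of the 34 genes were matched by symbol in the RefSeq promoter table (GRCm38.p6), as windows of 250 bases before and 50 bases from the annotated start. Those of 4 genes are shown because they stand for the response classes described further on, namely Ifit1 (higher at both intensities), Ifit3 and Tap1 (higher at 500 mOsm and lower again at 600 mOsm), and Isg15 (called against control at neither intensity). Capitals mark each match to the ISRE core GAAANNGAA, which reads TTCNNTTTC where it lies on the opposite strand, and overlapping matches run together.
Ifit1, chr19:34640639-34640938, plus strand: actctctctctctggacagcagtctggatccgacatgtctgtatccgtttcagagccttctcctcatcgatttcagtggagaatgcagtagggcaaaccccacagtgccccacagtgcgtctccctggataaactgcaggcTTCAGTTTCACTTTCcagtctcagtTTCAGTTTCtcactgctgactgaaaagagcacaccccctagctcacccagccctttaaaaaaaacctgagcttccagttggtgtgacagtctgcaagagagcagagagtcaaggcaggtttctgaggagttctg
Ifit3, chr19:34583279-34583578, plus strand: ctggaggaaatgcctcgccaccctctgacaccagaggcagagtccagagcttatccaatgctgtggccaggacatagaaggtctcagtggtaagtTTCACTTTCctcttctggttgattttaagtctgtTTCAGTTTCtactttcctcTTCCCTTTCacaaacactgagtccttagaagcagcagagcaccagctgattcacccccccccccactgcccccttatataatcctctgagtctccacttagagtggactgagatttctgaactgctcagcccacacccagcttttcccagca
Isg15, chr4:156200769-156201068, minus strand: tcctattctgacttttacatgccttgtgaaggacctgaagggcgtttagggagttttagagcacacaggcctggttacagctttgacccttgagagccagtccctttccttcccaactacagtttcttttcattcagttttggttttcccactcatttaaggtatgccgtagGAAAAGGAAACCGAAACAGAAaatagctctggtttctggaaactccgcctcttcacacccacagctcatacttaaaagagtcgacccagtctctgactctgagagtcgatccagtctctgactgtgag
Tap1, chr17:34187306-34187605, plus strand: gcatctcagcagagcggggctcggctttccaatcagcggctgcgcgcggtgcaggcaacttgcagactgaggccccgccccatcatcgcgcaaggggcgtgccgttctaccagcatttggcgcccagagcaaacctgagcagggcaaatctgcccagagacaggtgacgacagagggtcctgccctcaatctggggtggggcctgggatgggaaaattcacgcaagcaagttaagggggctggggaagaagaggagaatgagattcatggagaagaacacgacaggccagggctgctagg
The Ifit1, Ifit3 and Isg15 windows each held 3 matches, all within 155 bases before the start, and the Tap1 window held none. Ifit2, Irf9 and Gbp3 have 2 windows each, which makes 28 windows for the 25 genes. The ISRE core occurred in some window of 15 of the 25 interferon-stimulated genes, against 9.76% of the 27025 genes of the whole promoter table. The GAS core TTCNNNGAA, which reads the same on either strand, occurred in 6 of the 25, against 9.55% of all genes. Of the 20 matched genes that passed the low-count filter 10 held an ISRE core, and so did all 5 matched genes that did not pass it. A match is a run of letters and not a shown binding site.

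**Figure D1:**
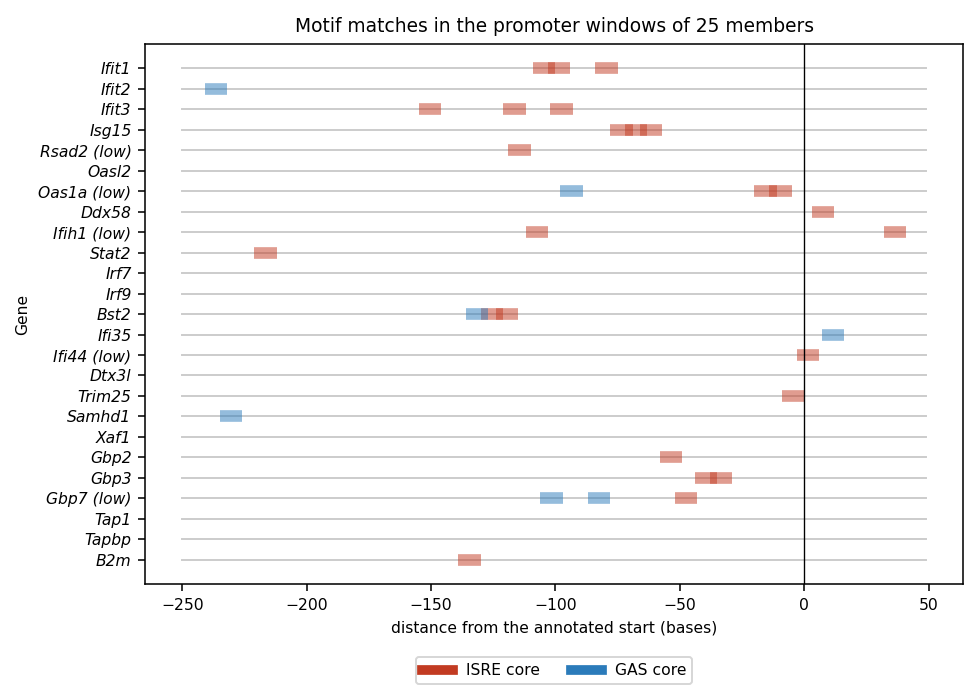
Matches to the ISRE core (red) and the GAS core (blue) in the promoter windows of 25 interferon-stimulated genes, by distance from the annotated start in bases, with the windows of a gene that has 2 starts drawn on 1 line; darker stretches are overlapping matches, and (low) marks genes under the low-count filter. Ifit1, Ifit3 and Isg15 hold 3 ISRE matches each, and Tap1, Irf7 and Xaf1 hold none.

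The level of these genes in unstressed MEFs spanned from no read to among the abundant transcripts. Levels between genes are given in FPKM, fragments scaled to transcript length and library size, which corrects for transcript length. Tapbp, which encodes the peptide-loading chaperone tapasin, was highest at 108 ± 3.46 FPKM (SD, n = 3), followed by B2m, the light chain of MHC class I, at 86.2 ± 2.12. Samhd1, a nucleotide-degrading restriction factor, lay at 41.9 ± 2.07 FPKM, and the ranges of these 3 genes did not overlap with each other. Ifi27 at 16.3 ± 0.765 and Trim25 at 14.6 ± 0.933 FPKM came next, and their libraries overlapped. Isg15, the ubiquitin-like modifier, stood at 11.1 ± 0.564 FPKM. Other antiviral effectors were far lower, such as Ifit3 at 0.350 ± 0.120, Ifit1 at 0.165 ± 0.0080, and Rsad2, which encodes viperin, listed at 0 in the 3 control libraries.

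**Figure D2:**
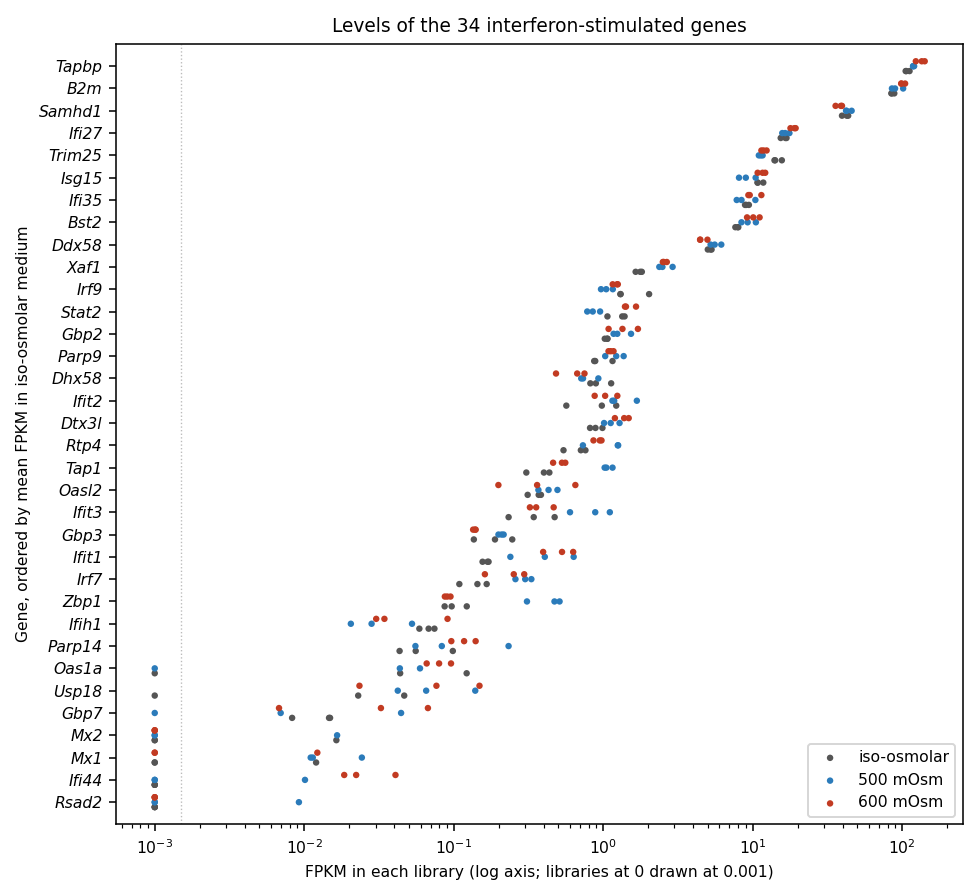
FPKM of the 34 interferon-stimulated genes in each of the 9 libraries, on a log axis and ordered by the control mean; each point is a library, and libraries at 0 are drawn at 0.001. Tapbp and B2m sit near 100 FPKM in every group, while Zbp1, Tap1 and Ifit3 show the 500 mOsm libraries set apart to the right.

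The filter left 8 of the 34 genes untested. These were Rsad2 (0 to 1 reads in any library), Mx2 (0 to 1), Mx1 (0 to 2), Ifi44 (0 to 4), Oas1a (0 to 5), Usp18 (0 to 7), Gbp7 (0 to 9) and Ifih1, which encodes the RNA sensor MDA5 (3 to 11). Usp18 removes ISG15 from its targets, the Mx proteins are antiviral GTPases, and OAS1a is an oligoadenylate synthetase. Ifi44 had no read in any control library and 1, 0 and 0 reads at 500 mOsm against 4, 2 and 2 at 600 mOsm. The 21716042 to 26740832 reads per library put a limit of 0.112 to 0.138 CPM (the count scaled to the library total) on a gene with no read, counting error only. The 600 mOsm libraries of Ifi44 lay above all others, and this was not tested. A gene that rose to about 10 reads in each library of a group would have entered the test, and smaller changes of these 8 genes were not tested. A gene that passes the filter only through the group where it is high had to differ, and among the members this holds for Zbp1, which reached the cutoff in the 500 mOsm libraries alone. Zbp1 was also called when no such filter was used. Irf7 reached the cutoff in 0 control libraries, 3 at 500 mOsm and 2 at 600 mOsm, so its passing also leaned on stressed libraries. Its call at 500 mOsm was lost when no such filter was used.

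At 500 mOsm, 7 of the 26 tested interferon-stimulated genes were higher than in control MEFs and 3 were lower, by edgeR's quasi-likelihood test at an adjusted p under 0.05. The 7 are 26.9% of the members tested, where 13.2% of all genes tested were called higher, and the 3 are 11.5%, where 14.8% of all genes were called lower. Zbp1, which had to differ once it passed the filter, is among the 7. The 600 mOsm stress gave 7 members above control and 2 below it, 26.9% and 7.69% of the members, against 15.1% and 20.0% of all genes. Between the stressed groups 3 members were higher at 600 than at 500 mOsm and 5 were lower, 11.5% and 19.2%, against 11.9% and 17.2% of all genes. The median log2 fold change of the 26 members was 0.27 at 500 mOsm, 0.23 at 600 mOsm and -0.02 between the stresses, where the median over all genes tested was 0.01 in each comparison. Ifit1 and Xaf1 were called higher at both intensities, and Trim25 was called lower at both. Because the 2 stress comparisons share the control libraries, these overlaps are given as a description. The 7 tested members called in none of the 3 comparisons were Ifit2, Oasl2, Ifi35, Parp9, Parp14, Gbp2 and Gbp3.

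**Figure D3:**
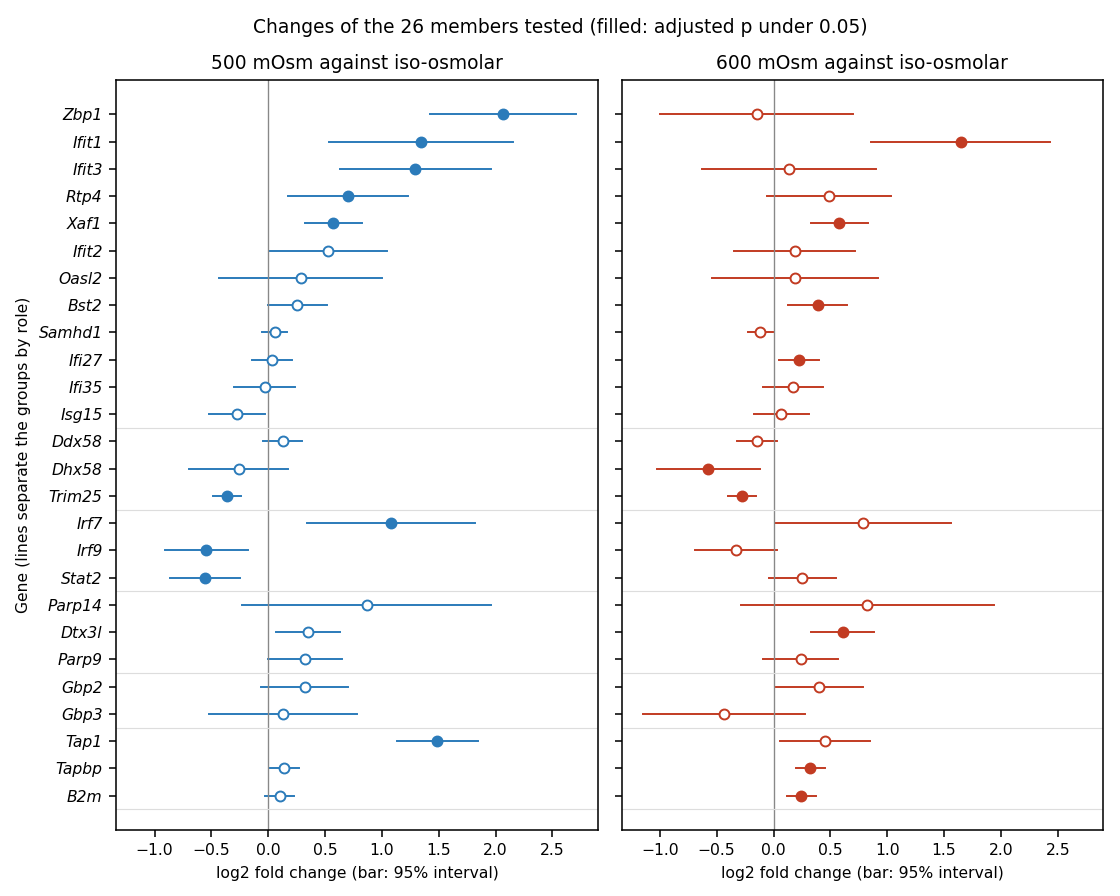
Log2 fold changes of the 26 tested interferon-stimulated genes at 500 mOsm (left) and 600 mOsm (right) against iso-osmolar medium, with bars for the 95% interval of the fit and filled points for an adjusted p under 0.05; lines separate antiviral effectors, RNA helicases with Trim25, transcription factors, the Parp9 group, guanylate-binding proteins and antigen presentation genes. Zbp1 and Tap1 lead at 500 mOsm (2.07 and 1.49), and Ifit1 leads at 600 mOsm (1.65).

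Among the antiviral effectors, 5 of 12 tested genes rose at 500 mOsm, 4 of 12 rose at 600 mOsm, and none was called lower against control at either intensity. The 5 and the 4 are 41.7% and 33.3% of the 12, where 13.2% and 15.1% of all genes tested were called higher. The 5 include Zbp1, which reached the low-count cutoff in the 500 mOsm libraries alone and so had to differ once tested. Over all genes tested 14.8% and 20.0% were called lower. Zbp1, a sensor of Z-form nucleic acid that can trigger necroptosis, moved most. It had 7, 10 and 7 reads in the control libraries, 25, 42 and 44 at 500 mOsm and 7, 7 and 8 at 600 mOsm, or 0.319, 0.410 and 0.286 CPM, 1.03, 1.58 and 1.68 CPM, and 0.293, 0.313 and 0.309 CPM. The 3 libraries at 500 mOsm lay above all 6 others, and control and 600 mOsm overlapped. The log2 fold change was 2.07 ± 0.30 (SE) at 500 mOsm (adjusted p = 0.000168) and -0.15 ± 0.39 at 600 mOsm (adjusted p = 0.809), with a difference between the intensities of -2.21 ± 0.30 (adjusted p = 0.000132).

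Ifit3, whose protein forms a complex with the other IFIT proteins on foreign RNA, was likewise highest at 500 mOsm. Its reads were 13, 10 and 20 in control libraries, 47, 28 and 40 at 500 mOsm and 15, 18 and 15 at 600 mOsm. No library at 500 mOsm overlapped with the other groups. The log2 fold change was 1.29 ± 0.31 at 500 mOsm (adjusted p = 0.00650), 0.14 ± 0.35 at 600 mOsm (adjusted p = 0.798) and -1.16 ± 0.30 between them (adjusted p = 0.0116). Without the first 500 mOsm library the difference between the stresses had an adjusted p of 0.0537. Ifit3 shares a stretch of 1700 bases at 97.8% identity with Ifit3b, which is listed under its older symbol I830012O16Rik with at most 9 reads in a library, so that reads could be split between them.

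Ifit1, which binds RNA lacking the methylated cap of cellular mRNA, rose at both intensities. It had 9, 11 and 11 reads in the control libraries, 41, 17 and 28 at 500 mOsm and 34, 37 and 28 at 600 mOsm. The stressed libraries all lay above the control libraries, and both stressed groups overlapped. The log2 fold change was 1.35 ± 0.37 at 500 mOsm (adjusted p = 0.0160) and 1.65 ± 0.36 at 600 mOsm (adjusted p = 0.00389). The difference between intensities was 0.30 (95% interval -0.36 to 0.96, adjusted p = 0.511). The 500 mOsm libraries were spread widely, and without the first of them the adjusted p at 500 mOsm was 0.0718. Ifit2, the neighbouring gene of the chromosome 19 cluster, was not called, at 0.53 ± 0.24 on the log2 scale under the lower stress (adjusted p = 0.126) and 0.19 ± 0.25 (adjusted p = 0.592), although without the third control library it was called at 500 mOsm (adjusted p = 0.0395).

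Xaf1, a pro-apoptotic antagonist of the inhibitor of apoptosis XIAP, rose by the same amount under both stresses. Its level was 4.24, 4.63 and 4.66 CPM in control libraries, 6.15, 6.52 and 7.48 CPM at 500 mOsm and 6.99, 6.54 and 6.69 CPM at 600 mOsm. All 6 stressed libraries lay above the control libraries. The fold changes were 1.49 at 500 mOsm (adjusted p = 0.00202) and 1.49 at 600 mOsm (adjusted p = 0.00196), and the log2 difference between them was 0.00 (95% interval -0.23 to 0.24). Rtp4, a receptor chaperone with antiviral activity, was called at 500 mOsm alone, with a log2 fold change of 0.70 ± 0.24 (adjusted p = 0.0479) there and 0.49 ± 0.25 (adjusted p = 0.150) at 600 mOsm. Its control libraries (0.860 to 1.18 CPM) overlapped with those at 500 mOsm, and the call was lost on leaving out any library but the first at 500 mOsm (adjusted p 0.0582 to 0.175).

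The remaining effector changes were small and were called at 600 mOsm or between the stresses. Bst2, which encodes the virion tether tetherin, went from 5.90 to 6.06 CPM in control libraries to 6.94 to 8.74 CPM at 600 mOsm, a log2 fold change of 0.39 ± 0.12 (adjusted p = 0.0237), lost without any 1 control library or without the first or the third at 600 mOsm (up to adjusted p = 0.108). Ifi27, an interferon-induced membrane protein gene, was called at 600 mOsm with 0.23 ± 0.08 (adjusted p = 0.0490), a call lost on leaving out any library but the second at 600 mOsm (up to adjusted p = 0.165). Isg15 had 8.06, 8.97 and 8.10 CPM in control libraries, 6.11, 6.86 and 7.82 CPM at 500 mOsm and 8.25, 9.09 and 9.05 CPM at 600 mOsm. The 500 mOsm libraries lay below all others, but the change at 500 mOsm of -0.27 ± 0.11 did not pass (adjusted p = 0.0929), and only the difference between the intensities did (0.34 ± 0.11, adjusted p = 0.0363). That difference was lost without the first or second 500 mOsm library or the second or the third 600 mOsm library (up to adjusted p = 0.132), while without the third 500 mOsm library the change at 500 mOsm passed (adjusted p = 0.0383). Samhd1 was likewise called between the stresses alone, by -0.18 ± 0.05 (adjusted p = 0.0204), a call lost without the third library of either stress (up to adjusted p = 0.0833). Oasl2 and Ifi35 were not called in any comparison, Ifi35 except between the stresses when the second 500 mOsm library was left out (adjusted p = 0.0362), with values of 0.29 ± 0.33 and -0.03 ± 0.12 at 500 mOsm and 0.19 ± 0.34 and 0.17 ± 0.12 at 600 mOsm.

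**Figure D4:**
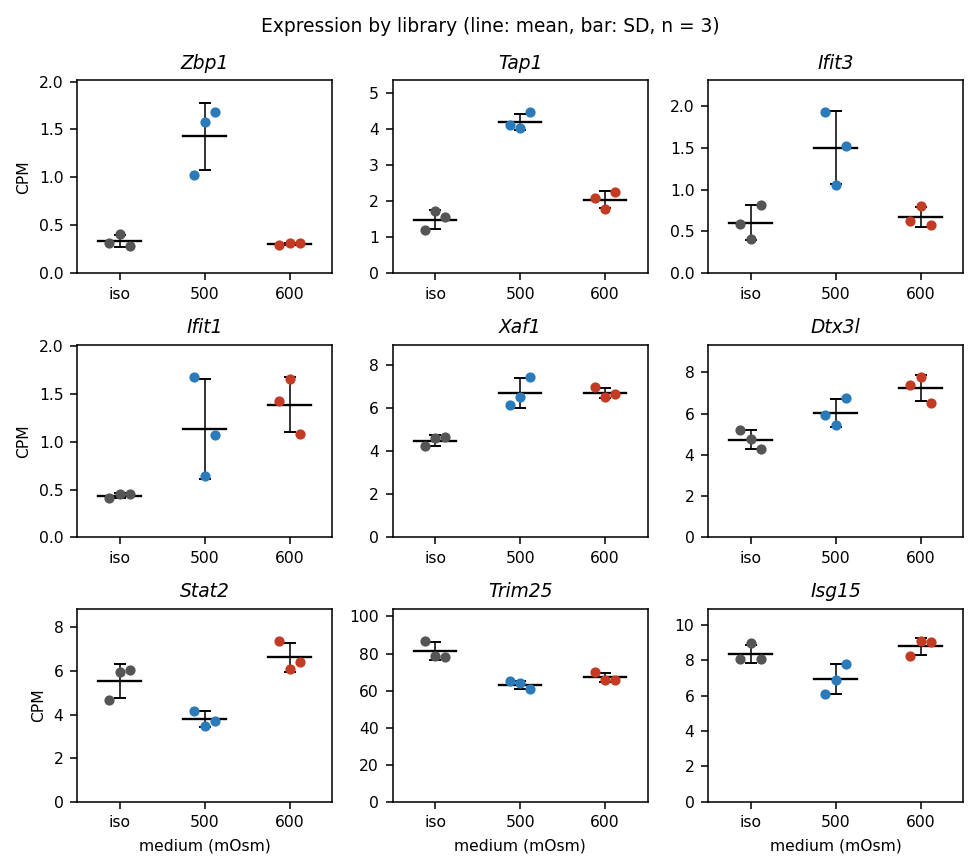
Expression in CPM of 9 interferon-stimulated genes in the 3 libraries of each medium (iso, iso-osmolar; 500 and 600, mOsm), with the mean as a line and the SD as a bar, each axis starting at 0. Zbp1 and Ifit3 are high in the 500 mOsm libraries alone. Tap1 is highest there, with its 600 mOsm libraries above control but not called. Ifit1, Xaf1 and Dtx3l lie above control in both stressed groups, Dtx3l not called at 500 mOsm. Stat2 is lowest at 500 mOsm, and Trim25 is lower under both stresses.

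The cytosolic RNA helicase genes and Trim25, the ubiquitin ligase that activates RIG-I, did not rise against control at either intensity. Trim25 stood at 86.7, 78.9 and 78.3 CPM in control libraries, 65.0, 63.9 and 60.8 CPM at 500 mOsm and 70.0, 65.5 and 65.7 CPM at 600 mOsm. Every stressed library was below every control library, and the log2 fold changes were -0.36 ± 0.06 (adjusted p = 0.000380) and -0.28 ± 0.06 (adjusted p = 0.00264). Dhx58, which encodes the regulatory helicase LGP2, was called lower at 600 mOsm at -0.57 ± 0.21 (adjusted p = 0.0483) and had -0.26 ± 0.20 at 500 mOsm (adjusted p = 0.380). The 600 mOsm call was lost in 6 of 9 fits that left out 1 library, all but those without control 1, the third at 500 mOsm or the second at 600 mOsm (up to adjusted p = 0.185). Ddx58, the gene of RIG-I, was not called against control (0.13 ± 0.08 and -0.14 ± 0.08), and it was lower at 600 than at 500 mOsm by -0.27 ± 0.08 (adjusted p = 0.0215), a call lost without the third 500 mOsm or the first or the third 600 mOsm library (up to adjusted p = 0.0863).

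The 3 transcription factors did not move together at 500 mOsm, where Irf7 rose and Stat2 and Irf9 fell. Stat2, a subunit of the interferon-activated complex, had 4.65, 5.94 and 6.05 CPM in control libraries, 4.18, 3.47 and 3.70 CPM at 500 mOsm and 7.37, 6.09 and 6.42 CPM at 600 mOsm. The groups did not overlap, with 500 mOsm lowest and 600 mOsm highest. The log2 fold change was -0.56 ± 0.14 at 500 mOsm (adjusted p = 0.00999) and 0.25 ± 0.13 at 600 mOsm (adjusted p = 0.165), and the difference was 0.81 ± 0.14 (adjusted p = 0.000809). Irf9, the DNA-binding subunit of the same complex, had 110, 124 and 190 reads in control libraries, 91, 120 and 105 at 500 mOsm and 117, 106 and 119 at 600 mOsm, and the third control library stood above the rest. Its change was -0.54 ± 0.17 at 500 mOsm (adjusted p = 0.0289) and -0.33 ± 0.17 at 600 mOsm (adjusted p = 0.147), and the call at 500 mOsm was lost without the third control library or the first or the third 500 mOsm library (up to adjusted p = 0.138). Irf9 overlaps 123 bases of Rnf31 on the same strand. Irf7, which drives later interferon genes, had 7, 6 and 9 reads in control libraries, 18, 18 and 15 at 500 mOsm and 16, 8 and 15 at 600 mOsm. It was called at 500 mOsm (1.08 ± 0.34, adjusted p = 0.0314), while at 600 mOsm the change was 0.79 ± 0.36 (adjusted p = 0.106). The call at 500 mOsm was lost without any 1 control library or without the first or second 500 mOsm library (up to adjusted p = 0.113). It was also lost with no low-count filter and with DESeq2. Irf7 overlaps 45 bases of Phrf1 on the opposite strand, a gene with up to 3158 reads in a library, and whether the counting used strand is not stated.

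Parp9 and Dtx3l, whose proteins form an ADP-ribosylation and ubiquitin ligase pair, start next to each other and overlap by 682 bases on opposite strands. Dtx3l rose at 600 mOsm, from 5.19, 4.75 and 4.29 CPM in control libraries to 7.41, 7.79 and 6.53 CPM, a fold change of 1.53 (adjusted p = 0.00275), with 5.94, 5.43 and 6.75 CPM at 500 mOsm (log2 0.35 ± 0.13, adjusted p = 0.0616, and 0.0498 without the second 500 mOsm library). Parp9 was not called (0.33 ± 0.15 and 0.24 ± 0.15), nor was Parp14, with 0.86 ± 0.51 and 0.82 ± 0.51. The antisense gene Gm15564, which covers 5854 bases of Parp9, went from 59, 61 and 86 reads to 201, 193 and 150 at 500 mOsm and 357, 311 and 429 at 600 mOsm, and its part in the Parp9 counts was not tested. The tested guanylate-binding proteins, GTPases that attack vacuoles of intracellular pathogens, were Gbp2 and Gbp3, and neither was called. Gbp2 had 0.32 ± 0.18 and 0.40 ± 0.18 (called at 600 mOsm without the first 600 mOsm library, adjusted p = 0.0377), and Gbp3 0.13 ± 0.30 and -0.44 ± 0.33.

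All 3 antigen presentation genes were called against control at some intensity, Tap1 at 500 mOsm and Tapbp and B2m at 600 mOsm. These are 33.3% and 66.7% of the 3, where 13.2% and 15.1% of all genes tested were called higher. Tap1, a subunit of the transporter that carries peptides into the endoplasmic reticulum, had 26, 42 and 38 reads in control libraries, 100, 107 and 117 at 500 mOsm and 50, 40 and 58 at 600 mOsm, or 1.18, 1.72 and 1.55 CPM, 4.10, 4.03 and 4.46 CPM, and 2.09, 1.79 and 2.24 CPM. The 500 mOsm libraries stood well above the rest, and the 600 mOsm libraries lay above all control libraries. The log2 fold change was 1.49 ± 0.17 at 500 mOsm (adjusted p = 2.0e-05) and 0.45 ± 0.18 at 600 mOsm (adjusted p = 0.0698), and from 500 to 600 mOsm it fell by 1.03 ± 0.16 on the log2 scale (adjusted p = 0.000327). Tapbp had 305, 327 and 303 CPM in control libraries, 341, 346 and 344 CPM at 500 mOsm and 395, 354 and 421 CPM at 600 mOsm. Its log2 fold change was 0.14 ± 0.06 at 500 mOsm (adjusted p = 0.0980) and 0.32 ± 0.06 at 600 mOsm (adjusted p = 0.00115), and without the second 600 mOsm library it also passed at 500 mOsm (adjusted p = 0.0432). Tapbp was also higher at 600 than at 500 mOsm by 0.18 ± 0.06 (adjusted p = 0.0357). That call was lost without any 1 library at 500 mOsm or without the first or the third at 600 mOsm (up to adjusted p = 0.144). Tapbp overlaps 3421 bases of Zbtb22 on the same strand, a gene with up to 755 reads in a library. B2m changed by 0.10 ± 0.06 (adjusted p = 0.249) and 0.24 ± 0.06 (adjusted p = 0.00712). The abundant members of this group thus changed by less than 1.5-fold, and the rarer Tap1 by 2.81-fold at 500 mOsm.

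For Tap1, Rsad2 and Parp9 a neighbouring gene was set beside the member. Psmb9, the immunoproteasome subunit whose gene starts 211 bases from that of Tap1 in the opposite direction, shares 275 of the 300 bases of the promoter window shown above. It had 6, 4 and 6 reads in control libraries, 31, 20 and 30 at 500 mOsm and 7, 6 and 5 at 600 mOsm. The log2 fold change was 2.19 ± 0.35 under the lower stress (adjusted p = 0.000380) and 0.14 ± 0.46 under the higher (adjusted p = 0.843). Psmb9 reached the low-count cutoff in the 500 mOsm libraries alone, so that it had to differ once it was tested, and it was also called with no such filter. Psmb9 and Tap1 were thus both called at 500 mOsm and not at 600 mOsm, and they overlap by 212 bases. Cmpk2, a mitochondrial nucleotide kinase gene 12751 bases from Rsad2, had 26, 19 and 18 reads, then 92, 121 and 104 at 500 mOsm and 21, 22 and 22 at 600 mOsm. Its log2 fold change was 2.20 ± 0.19 at 500 mOsm (adjusted p = 2.81e-06) and 0.02 ± 0.24 at 600 mOsm (adjusted p = 0.967). Rsad2, often induced together with Cmpk2 by interferon, had a single read in the 9 libraries.

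**Figure D5:**
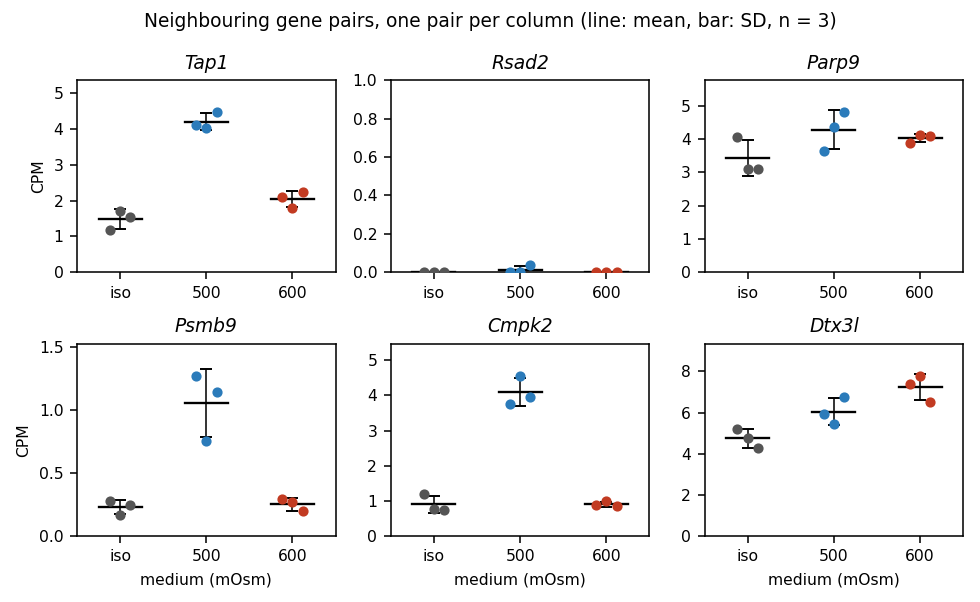
CPM of 3 neighbouring gene pairs (one pair per column) in the 3 libraries of each medium (iso, iso-osmolar; 500 and 600, mOsm), with the mean as a line and the SD as a bar, each axis starting at 0. Tap1 and Psmb9 are both high at 500 mOsm, and Cmpk2 is high at 500 mOsm while Rsad2 stays at or near 0. Dtx3l is called higher at 600 mOsm and Parp9 is not, and a difference between these genes was not tested.

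The other genes of the interferon pathway were read from lists of ligands, receptors and signaling, sensors, the double-stranded RNA kinase axis, negative regulators and further interferon-stimulated genes. None of the 9 interferon ligand genes passed the filter, and none had more than 3 reads in any library. Summed over the 9 genes, the reads were 0, 0 and 1 in the control libraries and 9, 9 and 9 at 500 mOsm. At 600 mOsm they were 1, 8 and 2. The 600 mOsm library with 8 reads was less deep (22112672 reads) than the 500 mOsm libraries (24317625 to 26740832 reads). Scaled to the library totals, the 500 and 600 mOsm groups overlapped, while the 500 mOsm libraries lay above all control libraries. The counts were too low to test by gene. Of 12 receptor and signaling genes 4 fell at 500 mOsm, while at 600 mOsm 1 rose and 1 fell. The 4 are 33.3% of the list, against 14.8% of all genes tested called lower at 500 mOsm. At 600 mOsm the rise and the fall are 8.33% of the list each, against 15.1% and 20.0% of all genes tested. Ifnar1 fell at both intensities (-0.30 ± 0.06, adjusted p = 0.00114, and -0.25 ± 0.06, adjusted p = 0.00397) and Ifngr2 at 500 mOsm (-0.34 ± 0.06, adjusted p = 0.000745). Ifnar2, Ifngr1, Jak1, Jak2 and Tyk2 were not called against control, Tyk2 except at 600 mOsm without the second 600 mOsm library (adjusted p = 0.0165).

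Irf1, an interferon-inducible activator of Tap1 and Psmb9, fell at 500 mOsm, where both of them were called higher, and a link between these changes was not tested. It stood at 40.7, 39.9 and 40.6 CPM in control libraries, 21.3, 21.8 and 21.0 CPM at 500 mOsm and 54.8, 51.8 and 54.9 CPM at 600 mOsm. Its groups were far apart, at log2 differences from control of -0.92 ± 0.06 (adjusted p = 1.46e-07) and 0.41 ± 0.06 (adjusted p = 0.000115). Of 9 negative regulators, 3 rose and 1 fell at 500 mOsm, while at 600 mOsm 1 rose and 3 fell. These are 33.3% and 11.1% of the list, then 11.1% and 33.3%, against 13.2% and 14.8%, then 15.1% and 20.0%, of all genes tested. Socs1, the inhibitor of JAK kinases, fell from 30.3, 39.3 and 37.0 CPM to 7.30, 9.43 and 7.89 CPM at 500 mOsm and 15.8, 12.5 and 22.7 CPM at 600 mOsm. Those changes were -2.11 ± 0.19 (adjusted p = 2.66e-06) and -1.06 ± 0.18 (adjusted p = 0.000542). Socs3 rose at 500 mOsm by 1.03 ± 0.11 (adjusted p = 1.90e-05), and so did Ptpn6 by 1.13 ± 0.32 (adjusted p = 0.0195), a call lost without the first or the third control or the second 500 mOsm library (up to adjusted p = 0.0852). Tnfaip3, the NF-κB inhibitor A20, rose by 1.72 ± 0.07 at 500 mOsm (adjusted p = 2.37e-09) and was lower at 600 mOsm by -1.01 ± 0.07 (adjusted p = 6.41e-07).

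In the double-stranded RNA kinase axis, 6 genes were tested and none rose against control. Of all genes tested 13.2% were called higher at 500 mOsm and 15.1% at 600 mOsm. Eif2ak2, itself interferon-stimulated and the gene of the kinase PKR, had 0.37 ± 0.18 (adjusted p = 0.153, and 0.0276 without the third control library) and 0.27 ± 0.18 (adjusted p = 0.288), and Prkra, which encodes its activator PACT, 0.18 ± 0.09 (adjusted p = 0.187) and 0.20 ± 0.10 (adjusted p = 0.123). Dicer1 fell at both intensities, with log2 changes of -1.23 ± 0.11 (adjusted p = 3.90e-06) and -1.19 ± 0.11 (adjusted p = 6.32e-06). Adar, the RNA editing enzyme, was lower at 600 mOsm (-0.23 ± 0.06, adjusted p = 0.00919), a call lost without the third control library (adjusted p = 0.0528). Eif2s1 was not called against control, nor was Tarbp2, which passed at both intensities with no low-count filter (adjusted p = 0.00507 and 0.00668) and in some fits that left out a library (500 mOsm without its second library, adjusted p = 0.0116). The list of nucleic acid sensors and adaptors leaves out the members, among them the sensor gene Zbp1, which was called higher at 500 mOsm. Of its 11 tested genes none was higher against control, with 1 lower at 500 mOsm and 2 at 600 mOsm. These are 9.09% and 18.2% of the list against 14.8% and 20.0% of all genes tested.

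Of 39 further interferon-stimulated genes tested, from 66 listed, 8 rose and 2 fell at 500 mOsm, while at 600 mOsm 14 rose and 4 fell. Besides Cmpk2 and Psmb9, Cxcl10 was higher at 500 mOsm (0.77 ± 0.19, adjusted p = 0.00703). This chemokine gene had 0.499 times its 500 mOsm level at 600 mOsm (adjusted p = 0.00157). Ifi30, a lysosomal thiol reductase of antigen processing, fell by 1.23 on the log2 scale at 500 mOsm (adjusted p = 6.57e-08) and by 0.45 at 600 mOsm (adjusted p = 0.000314). The 8 are 20.5% of the list, where 13.2% of all genes tested were called higher, and the 14 are 35.9%, where 15.1% were. Psmb9, which had to differ once it was tested, is among the 8. The 2 and the 4 that fell are 5.13% and 10.3%, where 14.8% and 20.0% of all genes tested were called lower.

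The cultures carried the fibroblast label in their markers, with 9 of 9 fibroblast genes tested and summing to 20700 to 25200 CPM in every library, mostly from Col1a1, Fn1, Vim and Col1a2. Among the less abundant of the 9, Col3a1 had means of 47.5 CPM in control libraries, 19.7 at 500 mOsm and 30.3 at 600 mOsm, and Pdgfra 37.7, 23.3 and 23.6 CPM. Markers of plasmacytoid dendritic cells, a main source of interferon, were at 0 in all libraries for 3 of 4 genes, and the fourth, Siglech, had at most 1 read. Of the 6 leukocyte and macrophage markers in the table the sums overlapped, with 38.3 to 42.3 CPM in control libraries, 35.0 to 47.2 at 500 mOsm and 37.5 to 46.7 at 600 mOsm, but single markers moved in opposite ways. Itgam, a macrophage and granulocyte integrin, had 2, 1 and 0 reads in control libraries, 61, 35 and 45 at 500 mOsm and 3, 5 and 3 at 600 mOsm, and Ptprc, which marks all leukocytes, had 1, 0 and 1, then 6, 7 and 3, then 1, 0 and 0. Cd14 went from a mean of 23.2 CPM in control libraries to 11.7 at 500 mOsm and 19.1 at 600 mOsm. Lyz2, a macrophage marker, was spread widely within the groups. It had 7.83, 3.77 and 3.19 CPM in control libraries, 4.59, 7.43 and 18.5 at 500 mOsm and 17.7, 13.2 and 6.30 at 600 mOsm. The sum of 5 endothelial markers moved with the 500 mOsm stress, from 0.778 to 0.900 CPM in control libraries to 12 to 13.4 at 500 mOsm and 2.13 to 3.18 at 600 mOsm. Pecam1 made most of this rise, with 4, 5 and 11 reads, then 265, 281 and 314, then 31, 53 and 35, and Kdr and Tek also had more reads, Kdr from 0 in each control library to 11, 6 and 10 at 500 mOsm and Tek from 1, 0 and 0 to 12, 12 and 13. Cdh5 had 11 to 19 reads in every library, and Emcn at most 1. The 5 epithelial markers, with Krt5 at 0, summed to 0.0455 to 0.164 CPM, 3.47 to 3.73 CPM and 0.134 to 0.209 CPM, and the 500 mOsm sum was nearly all Cdh1. The part of these marker shifts in the higher Zbp1, Tap1, Ifit3 and Irf7 at 500 mOsm was not tested.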

How the data were processed

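MEFs were profiled by poly(A) RNA-seq, 3 libraries per group. Per the submitters' processing notes, reads were handled with CASAVA 1.8 and STAR on mm10; the counting tool and its use of strand are not given in the sources used here. The authors deposited raw read counts per gene and FPKM values computed from them. The deposited fold changes and p-values of the authors' own comparisons were not used. Counts were fitted with edgeR 4.0.16 in R 4.3.3 (TMM normalization, filterByExpr, quasi-likelihood test, all 9 libraries in one model with group as the only term), and p-values were Benjamini-Hochberg adjusted over all 13082 genes tested. A gene was called at an adjusted p under 0.05. CPM values use the TMM-scaled library total, intervals are 95% intervals of the fit, and ± values on the log2 scale are standard errors. Replicate libraries differed by more than sampling noise, and none was a copy of another.

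Groups and replicate numbers were taken from the labels. The members and all gene lists were chosen with earlier results of these data known. All 34 members were accounted for; from the other lists the text names genes with an adjusted p under 0.05 and a log2 change of 1 or more in size in any comparison, and the receptors, Jak1, Jak2, Tyk2, Irf1, the double-stranded RNA kinase axis and the ligands in any case. Results of 2 genes of these lists are not reported here. Neighbours and genes sharing sequence were added from the annotation (blastn 2.17.0, at least 200 bases at 95% identity). Alternatives were RLE or no scaling factors, no low-count filter or at least 10 counts in every library, DESeq2 1.42.0, limma 3.58.1 on log2(FPKM + 1) and log2(FPKM + 0.1), the 6 libraries compared alone, a replicate block, each library left out, and stricter thresholds. Promoter windows were those of RefSeq, GRCm38.p6.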

Additional observations from a re-analysis of the deposited data

Results flagged for a closer look

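Of the interferon-stimulated genes and the listed genes of the interferon pathway, 11 had changes of opposite sign against control at the 2 intensities together with a called difference between 600 and 500 mOsm and a called change at 1 or both of the intensities (edgeR, adjusted over all genes tested). The difference itself was tested in each of the 11. The rule was not applied to the other genes tested, so whether 11 is many or few cannot be said. Over all genes tested 11.9% were called higher and 17.2% lower at 600 than at 500 mOsm.

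Among the members these were Zbp1, with a log2 difference of -2.21 (2.07 at 500 mOsm and -0.15 at 600 mOsm), and Stat2, with 0.81 (-0.56 and 0.25); the change at 600 mOsm alone did not pass for either gene (adjusted p = 0.809 and 0.165).

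Among the listed genes, both changes against control passed for Irf1 (difference 1.33), Tnfaip3 (-2.73) and Tor3a (-0.75), which therefore moved in opposite directions at the 2 intensities. The change at 500 mOsm alone passed for Ptpn6 (difference -1.30) and Cxcl10 (-1.002), and the change at 600 mOsm alone passed for Traf3 (-0.25), Ptpn11 (-0.33), Psme1 (0.25) and Rnf213 (-0.33).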

How the results depend on the processing

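No member changed direction of a called result under any alternative. The calls of Ifit3, Stat2, Zbp1, Trim25, Xaf1 and Tap1 at 500 mOsm, of Ifit1, Dtx3l, Trim25, Xaf1, Tapbp and B2m at 600 mOsm, and of Stat2, Zbp1 and Tap1 between the stresses held under all alternatives that gave them a value at the same threshold. Rtp4 at 500 mOsm lost its call in 13 of 18, Ifi27 at 600 mOsm in 14, Dhx58 in 9, and between the stresses Tapbp in 8 and Isg15 in 7; Irf7 lost its call in 7 of 17, Irf9 and Bst2 in 6 each, Ddx58 in 5 and Samhd1 in 4. The causes were not tested. Same-numbered libraries of different groups were on average no closer than others (mean correlation -0.0847 over 9 pairs, and 0.0425 over 18 pairs of different number). In 0 of 9 libraries did both of the 2 closest libraries of other groups share its number, a strict criterion. With the replicate block 6 members rose and 2 fell at 500 mOsm, 6 and 1 at 600 mOsm, and 2 and 3 between the stresses, against 7 and 3, 7 and 2, and 3 and 5 without it. Over all genes tested the block gave 1430 higher and 1681 lower, 1525 and 2273, and 1153 and 1936. Without it these were 1728 and 1931, 1977 and 2617, and 1560 and 2250. Leaving out 1 library gave 5 to 7 members higher and 2 to 3 lower at 500 mOsm, 5 to 7 and 1 to 2 at 600 mOsm, and 1 to 3 and 3 to 5 between the stresses. It gave medians of 0.18 to 0.29, 0.21 to 0.28 and -0.08 to 0.03. For the other interferon pathway genes, with 12 higher and 9 lower, 16 and 12, and 13 and 12, it gave 9 to 13 and 9 to 10, 13 to 19 and 9 to 14, and 12 to 14 and 10 to 12. Over all genes tested it gave 1463 to 1888 higher and 1655 to 2007 lower, 1395 to 2047 and 2169 to 2660, and 1059 to 1556 and 1878 to 2334. With at least 10 counts in every library, which tests fewer genes, 4 members rose at 500 mOsm, with a median of 0.16. Of the 11437 genes tested in that fit 1257 were higher at 500 mOsm. With limma on log2(FPKM + 1), which shrinks low genes, the medians were 0.12 at 500 and 0.12 at 600 mOsm. DESeq2 and the fit of only the 2 groups called 1 member lower at 600 mOsm, the latter called 1 higher between the stresses, and with no low-count filter 3 were lower there. Over all genes these fits called 2397 and 2557 lower at 600 mOsm, 1278 higher between the stresses, and 2598 lower there. At an adjusted p under 0.01, members numbered 4 higher at 500 mOsm, 1 lower at 600 mOsm, and 1 higher and 2 lower between the stresses, and other pathway genes 7 higher at 500 and 10 higher at 600 mOsm. All genes tested then gave 1129 higher and 1337 lower at 500 mOsm, 995 and 1851 at 600 mOsm, and 790 and 1562 between the stresses. With a log2 change of 1 or more in size also required, 0 members fell at 500 mOsm, 1 rose and 0 fell at 600 mOsm, and 0 rose and 3 fell between the stresses. Other pathway genes gave 5 higher and 3 lower, 0 and 3, and 2 and 5. All genes tested gave 711 higher and 411 lower, 316 and 426, and 206 and 651. Depth limits the 8 members under the filter and the intervals of Zbp1, Irf7, Ifit1 and Ifit3, which rest on at most 47 reads in a library.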
